A study of Rattus norvegicus with 8 samples.

Results

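Interferon response genes were examined in primary rat alveolar epithelial type II (ATII) cells, the surfactant-secreting cells of the lung alveolus, after transduction with an adenovirus. The list held 39 gene names for 38 distinct genes (Ddx58 and Rigi name the same one), and a gene was measured where a probe set of the array was annotated with its symbol and no other. By that rule 34 genes were found among the 18166 genes of the array. Ddx58, Eif2ak2, Bst2 and Ifnar2 were not analysed here. Where a gene had several probe sets, that with the highest mean over the 8 arrays was taken, which among the 34 applied to Usp18.

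Male Sprague Dawley rats served as donors, 4 in all, and the cells of a rat were split between 1 AdGFP well and 1 AdHIF1a well. AdGFP is the control adenovirus and carries green fluorescent protein. AdHIF1a expresses a constitutively active mutant HIF1a, the subunit of the hypoxia-inducible transcription factor that oxygen normally keeps low. Freshly isolated cells took up virus for 3 h (multiplicity of infection 20, 2% FBS), were plated on a gel of 80% collagen from rat tail with 20% Matrigel under medium holding 5% rat serum, and gave RNA 24 h later. Every well, the AdGFP wells included, therefore carried an adenovirus, and wells without virus were not analysed here. The sources used here give neither the age of the rats nor the promoter that drives each transgene. Each rat was handled on an extraction day of its own, so that rat and day cannot be told apart.

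Cells sense foreign nucleic acid through receptors such as the RNA helicases of the RIG-I family, which activate the transcription factors IRF3 and IRF7 and switch on type I interferon. Secreted interferon binds its receptor, and the kinases JAK1 and TYK2 then activate STAT2, which acts with IRF9 on interferon-stimulated response elements in the promoters of the response genes. Alveolar epithelium is a site where this programme limits infection, and adenoviral vectors are known to be able to trigger it.

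Promoter sequence of the response genes is shown first, because members that differ in their response can be set beside the element that defines the programme. Of the 34 genes, 27 had an entry in the RefSeq promoter table (rat build GRCr8, 250 bases before and 50 after the annotated start). The core of the interferon-stimulated response element, searched as GAAANNGAA and as its reverse complement TTCNNTTTC, was present in 13 of the 27 windows, or 48.1%, against 9.71% of all 33469 windows in the table. The gamma-activated site TTCNNNGAA, which reads the same on both strands, was present in 7 of 27 (25.9%), against 8.87% of all windows. The core of the hypoxia response element, the sequence bound by HIF1a, was searched as ACGTG or GCGTG on both strands, and 1 or the other was present in 11 of 27 windows (40.7%), against 41.6% of all. No motif searched contains another, though matches of different motifs may share bases, and a match is a run of letters, not a bound site. The 250 bases before the start of 5 genes with large differences are given below 5′ to 3′ on the strand of the gene, with the response element core in capitals.
Cxcl10, chr14:15988816-15989065, plus strand: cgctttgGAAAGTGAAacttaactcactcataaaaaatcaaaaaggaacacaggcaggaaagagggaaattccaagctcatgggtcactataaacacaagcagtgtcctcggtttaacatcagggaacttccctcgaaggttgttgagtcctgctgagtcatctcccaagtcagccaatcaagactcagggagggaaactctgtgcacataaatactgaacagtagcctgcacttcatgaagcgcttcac
Cxcl11, chr14:15973478-15973727, plus strand: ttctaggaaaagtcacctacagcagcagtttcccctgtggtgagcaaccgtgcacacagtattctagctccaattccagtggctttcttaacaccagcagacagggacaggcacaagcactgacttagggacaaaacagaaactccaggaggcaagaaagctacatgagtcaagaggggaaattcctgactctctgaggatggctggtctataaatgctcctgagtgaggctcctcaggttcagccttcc
Rsad2, chr6:48788121-48788370, minus strand: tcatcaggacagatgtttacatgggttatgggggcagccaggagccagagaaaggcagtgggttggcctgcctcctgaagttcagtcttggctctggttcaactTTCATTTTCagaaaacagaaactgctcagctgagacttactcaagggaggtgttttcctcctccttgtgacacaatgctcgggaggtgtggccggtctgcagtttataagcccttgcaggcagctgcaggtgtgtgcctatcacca
Oasl, chr12:47356293-47356542, minus strand: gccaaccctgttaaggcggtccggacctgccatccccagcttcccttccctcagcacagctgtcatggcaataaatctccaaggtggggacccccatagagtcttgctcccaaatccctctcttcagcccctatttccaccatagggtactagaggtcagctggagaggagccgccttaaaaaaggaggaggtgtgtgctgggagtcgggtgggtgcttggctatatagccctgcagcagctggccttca
Ifit3, chr1:241527076-241527325, plus strand: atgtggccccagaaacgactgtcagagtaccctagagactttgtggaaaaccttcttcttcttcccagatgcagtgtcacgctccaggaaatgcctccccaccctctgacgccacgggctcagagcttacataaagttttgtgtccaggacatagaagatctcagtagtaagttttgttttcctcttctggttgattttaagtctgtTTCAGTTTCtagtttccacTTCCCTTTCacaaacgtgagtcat
The core lay 243 to 235 bases before the start in Cxcl10 and 146 to 138 bases before it in Rsad2, and Ifit3 had a pair of them, 43 to 35 and 24 to 16 bases before it. No core of this spelling lay in these windows of Cxcl11 and Oasl. Over the 27 windows it lay in 1 of the 3 of genes called higher with AdHIF1a and in 12 of the 24 of genes not called.

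Of the 34 genes, 3 rose with AdHIF1a, and the remaining 31 did not pass the test. The 3 of 34 members that were higher at an adjusted p under 0.05 (limma, paired by rat, Benjamini-Hochberg over all 18166 genes) were the chemokines Cxcl10 and Cxcl11 and the effector Oasl. Over all genes 5.68% were called higher and 7.77% lower. No member was called lower by limma, and none was lower at an unadjusted p under 0.05. At that unadjusted p 14 of the 34 were higher, against 12.2% of all genes, and 27.7% of all genes passed it in either direction. All 4 AdHIF1a wells lay above all 4 AdGFP wells in 4 of the 34, against 10.3% of all genes. A further gene, Rsad2, had the largest mean difference of the 34 and an adjusted p of 0.0513. With the variance prior of limma taken from named genes alone, a choice made after seeing the data, 7 of the 34 were higher, but then 20.2% of all genes were called and 8.68% were called higher.

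The differences were unequal between rats. The median difference over the 34 genes, AdHIF1a minus AdGFP on the log2 scale, was 0.025 in rat 1, 0.615 in rat 2, 0.02 in rat 3 and 0.505 in rat 4, while the median over all genes lay between -0.04 and 0.00 in each rat. The number of members with the higher signal in the AdHIF1a well was 18 in rat 1, 32 in rat 2, 19 in rat 3 and 29 in rat 4. Rats 2 and 4 thus gave differences in 1 direction for nearly the whole list, and rats 1 and 3 gave about as many differences of either sign. Over the 4 rats, 15 members were higher in every pair, against 17.9% of all genes, and Ifi35 was lower in every pair, against 20.4% of all genes.

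**Figure D1:**
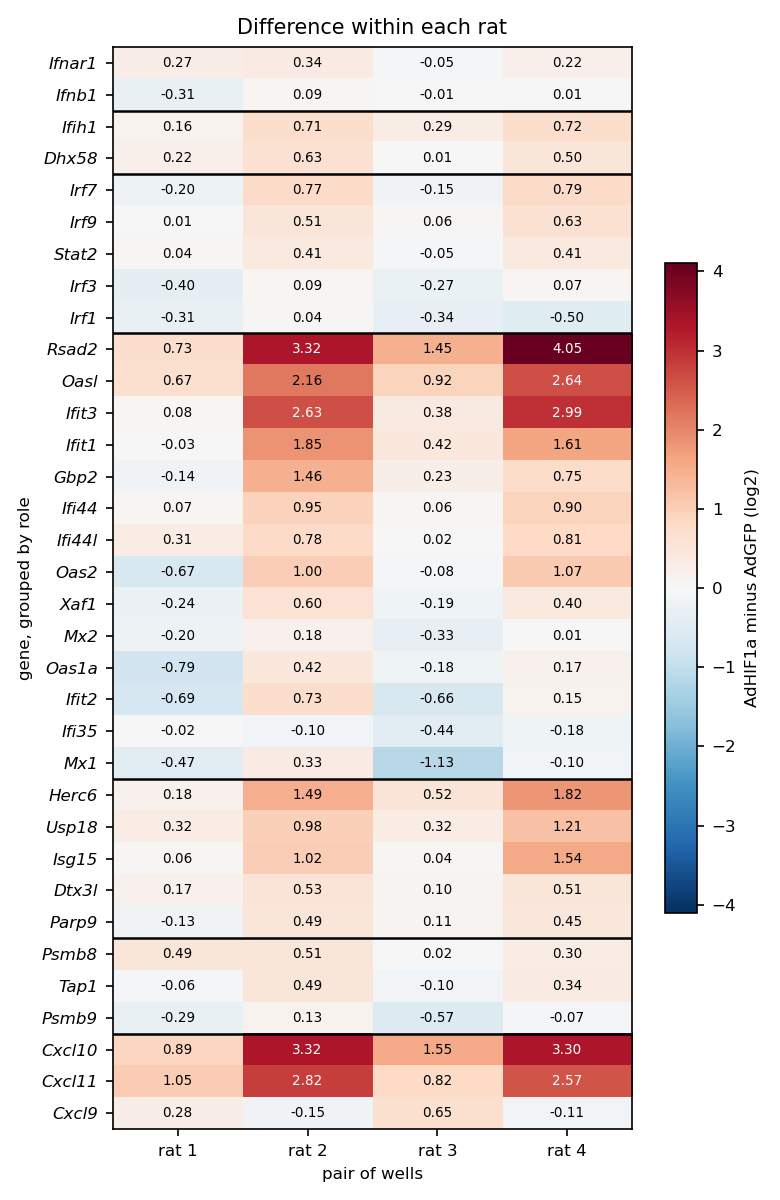
Difference between the AdHIF1a and the AdGFP well of each rat (columns) for the 34 interferon response genes (rows, grouped by role), in log2 units, printed in each cell and coloured from blue (lower with AdHIF1a) to red (higher). The columns of rats 2 and 4 are red for most genes, while those of rats 1 and 3 hold both colours, with Rsad2 reaching 4.05 in rat 4.

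The chemokines Cxcl9, Cxcl10 and Cxcl11 all bind the receptor CXCR3 and draw activated T cells and natural killer cells. They are neighbours on chromosome 14, with Cxcl10 between Cxcl11 and Cxcl9. Cxcl10 (probe set 17688711) had a log2 signal of 11.06 in the AdGFP well and 11.95 in the AdHIF1a well of rat 1, 8.87 and 12.19 in rat 2, 10.31 and 11.86 in rat 3, and 8.80 and 12.10 in rat 4. All 4 AdHIF1a wells lay above all 4 AdGFP wells, and the AdHIF1a wells lay close together while the AdGFP wells of rats 2 and 4 were far below those of rats 1 and 3. The mean went from 9.76 ± 1.11 to 12.03 ± 0.15 (SD, n = 4), a 4.81-fold rise with a 95% interval of 2.17 to 10.6 and an adjusted p of 0.0316 (limma).

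Cxcl11 (probe set 17688703) read 10.72 with AdGFP and 11.77 with AdHIF1a in rat 1, 8.59 and 11.41 in rat 2, 10.51 and 11.33 in rat 3, and 8.75 and 11.32 in rat 4. Its groups did not overlap either, and its AdGFP wells again fell into a higher pair, rats 1 and 3, and a lower pair, rats 2 and 4. The rise was 3.52-fold (95% interval 1.81 to 6.83, adjusted p 0.0354, limma).

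Cxcl9, which in most cells depends on interferon gamma more than its neighbours do, read 3.44 and 3.72 in rat 1, 3.79 and 3.64 in rat 2, 3.21 and 3.86 in rat 3, and 3.63 and 3.52 in rat 4. These values lie below the median of all values on the arrays, 5.10, in both groups, and the groups overlapped. Its mean difference was 0.17 ± 0.16 (SE) with an adjusted p of 0.568 (limma).

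The call for Cxcl11 was lost without any 1 of the 4 rats, with adjusted p between 0.0529 and 0.148 (limma). The calls for Cxcl10 and Oasl were lost without rat 2, rat 3 or rat 4 and held without rat 1, with adjusted p of 0.0282 to 0.128 for Cxcl10 and 0.0424 to 0.162 for Oasl (limma). The fits without 1 rat rest on 3 pairs.

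**Figure D2:**
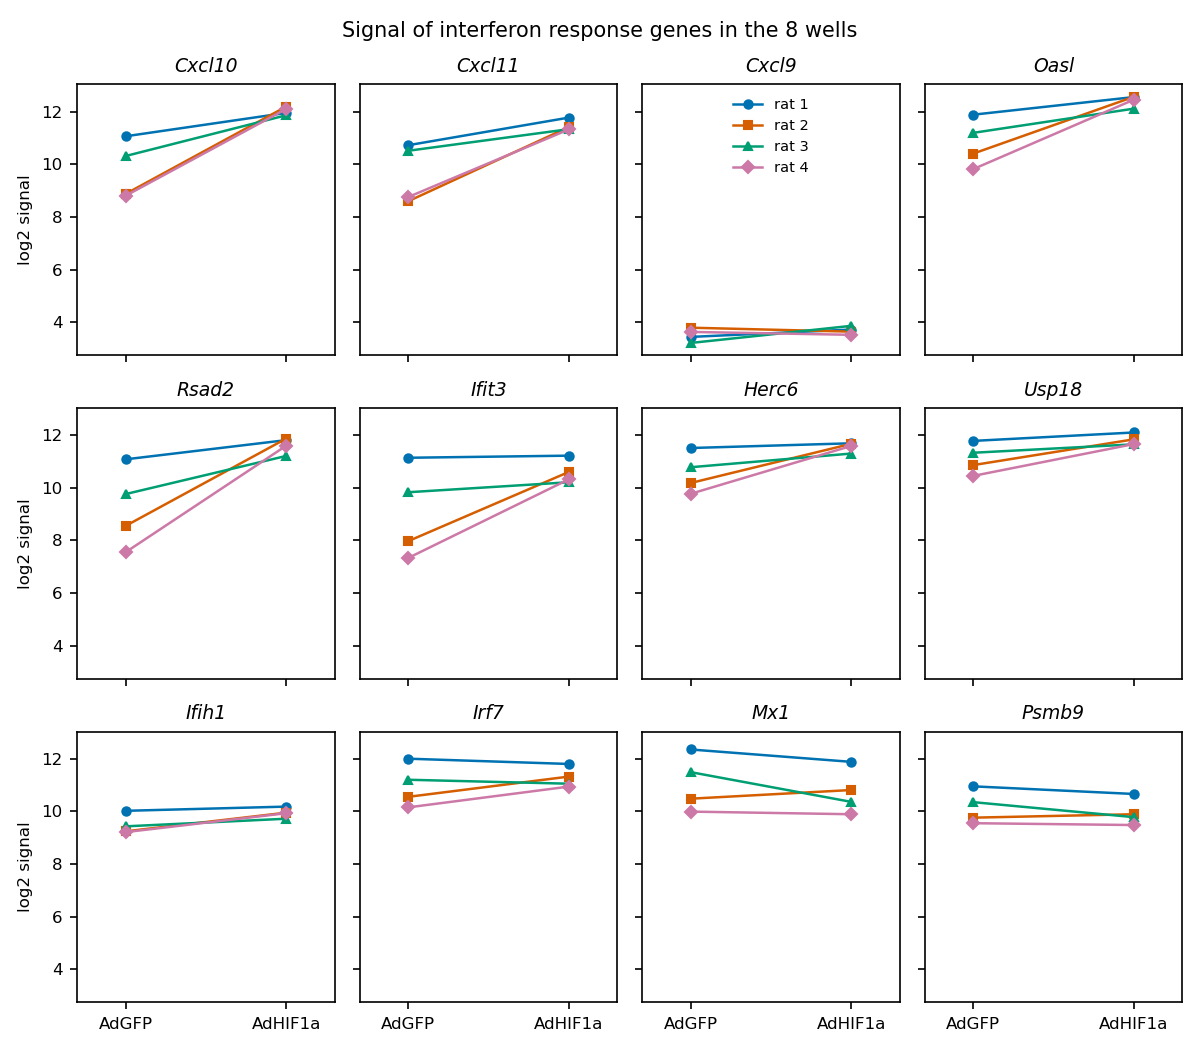
Log2 signal (vertical axis) of 12 interferon response genes in the AdGFP and the AdHIF1a well of each rat, with a line joining the 2 wells of a rat. For Cxcl10, Cxcl11, Oasl and Rsad2 the 4 lines start far apart and end close together, with every AdHIF1a well above every AdGFP well, while for Mx1 and Irf7 lines run in both directions.

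The 14 measured antiviral effectors comprise proteins that act on viral RNA, viral entry or viral assembly and other induced genes of the programme. Of these, 1 was called higher and none lower, against 5.68% and 7.77% of all genes. At an unadjusted p under 0.05 (limma) 6 were higher, against 12.2% of all genes. The median difference was 0.405, and 5 of the 14 were higher in every rat, against 17.9% of all genes. Oasl (probe set 17678723), an oligoadenylate synthetase-like protein, read 11.88 with AdGFP and 12.55 with AdHIF1a in rat 1, 10.40 and 12.56 in rat 2, 11.19 and 12.11 in rat 3, and 9.81 and 12.45 in rat 4. Every AdHIF1a well lay above every AdGFP well, and rats 4 and 2 had the lowest AdGFP wells. Oasl rose 3.03-fold (95% interval 1.63 to 5.61, adjusted p 0.0417, limma).

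Rsad2 (probe set 17821293), the gene of viperin, which makes a chain-terminating nucleotide, read 11.08 and 11.81 in rat 1, 8.55 and 11.87 in rat 2, 9.76 and 11.21 in rat 3, and 7.55 and 11.60 in rat 4. Its groups did not overlap, and the AdGFP wells spanned 11.6-fold where the AdHIF1a wells spanned 1.58-fold. The fold within a rat was 1.66 in rat 1, 9.99 in rat 2, 2.73 in rat 3 and 16.6 in rat 4. The mean difference of 5.23-fold had a 95% interval of 1.94 to 14.1 and missed the threshold with an adjusted p of 0.0513 (limma). Rsad2 was called in several alternative fits, among them that without the rat block, with an adjusted p of 0.0375 (limma). With 1 rat left out it was called without rat 1 and not without rat 2, rat 3 or rat 4. The adjusted p of these fits was 0.0398 to 0.188 (limma).

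The 3 Ifit genes, whose products bind viral RNA and hold back its translation, lie close together on chromosome 1, and none was called. Ifit3 read 11.14 and 11.22 in rat 1, 7.97 and 10.60 in rat 2, 9.83 and 10.21 in rat 3, and 7.33 and 10.32 in rat 4. It was higher in every rat, by little in rats 1 and 3, and the AdGFP well of rat 1 lay above 3 of the 4 AdHIF1a wells. The difference was 1.52 ± 0.56 (SE, adjusted p 0.148, limma). Ifit1 read 10.29 and 10.26 in rat 1, 7.20 and 9.05 in rat 2, 8.50 and 8.92 in rat 3, and 7.0 and 8.61 in rat 4, and its difference was 0.96 ± 0.34 (adjusted p 0.140, limma). Ifit2 read 10.82 and 10.13 in rat 1, 8.81 and 9.54 in rat 2, 9.94 and 9.28 in rat 3, and 8.47 and 8.62 in rat 4. It was lower with AdHIF1a in rats 1 and 3 and higher in rats 2 and 4, with a mean difference of -0.12 ± 0.26 (adjusted p 0.831, limma).

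Mx1 and Mx2, dynamin-like GTPases that block viral nucleocapsids, were among the brightest members and were not called. Mx1 read 12.35 and 11.88 in rat 1, 10.48 and 10.81 in rat 2, 11.49 and 10.36 in rat 3, and 9.99 and 9.89 in rat 4, and was lower in 3 of 4 rats (-0.34 ± 0.24, adjusted p 0.432, limma). Its groups overlapped almost wholly, and rat 1 was the highest in both. Mx2 ranged from 10.89 to 12.10 with AdGFP and from 10.90 to 11.90 with AdHIF1a (-0.085 ± 0.11, adjusted p 0.698, limma).

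The oligoadenylate synthetases Oas1a and Oas2, which make the second messenger that activates RNase L, were not called. Oas2 read 8.77 and 8.10 in rat 1, 6.48 and 7.48 in rat 2, 6.73 and 6.65 in rat 3, and 5.85 and 6.92 in rat 4, so that its groups overlapped and its sign differed between rats (0.33 ± 0.32, adjusted p 0.580, limma). Oas1a ranged from 5.63 to 6.68 with AdGFP and from 5.89 to 6.05 with AdHIF1a, a difference of -0.095 ± 0.21 (adjusted p 0.826, limma). The sign of Oas1a and of Ifit2 turned when arrays were weighted. Members of the Oas, Ifit and Mx families resemble each other, and how far their probe sets share signal was not tested.

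The other 5 effectors were not called. Gbp2, an interferon-induced guanylate-binding protein, read 7.75 and 7.61 in rat 1, 5.62 and 7.08 in rat 2, 6.51 and 6.74 in rat 3, and 5.65 and 6.40 in rat 4 (0.575 ± 0.27, adjusted p 0.237, limma). Ifi44 and Ifi44l, adjacent paralogues on chromosome 2, were higher in every rat, by 0.495 ± 0.20 and 0.48 ± 0.16 (adjusted p 0.180 and 0.120, limma), and their groups overlapped. Xaf1, an inhibitor of the apoptosis inhibitor XIAP, differed by 0.14 ± 0.17 (adjusted p 0.666, limma). Ifi35, whose product pairs with NMI, differed by -0.185 ± 0.10 and was lower in every rat (adjusted p 0.319, limma).

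None of the 5 genes of ISG15 conjugation and ADP-ribosylation passed the test. At an unadjusted p under 0.05 (limma) 3 were higher, against 12.2% of all genes. In every rat 4 were higher, against 17.9% of all genes. Isg15, the ubiquitin-like protein attached to new proteins during infection, read 9.95 and 10.01 in rat 1, 8.48 and 9.50 in rat 2, 9.28 and 9.32 in rat 3, and 7.86 and 9.40 in rat 4. Its 2 wells were nearly level in rats 1 and 3 (0.665 ± 0.28, adjusted p 0.202, limma). Herc6, a ligase that attaches ISG15 in the mouse, read 11.51 and 11.69 in rat 1, 10.18 and 11.67 in rat 2, 10.78 and 11.30 in rat 3, and 9.77 and 11.59 in rat 4. Its AdHIF1a wells lay between 11.30 and 11.69, and the AdGFP well of rat 1 lay inside that range (1.0 ± 0.30, adjusted p 0.0878, limma).

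Usp18, the protease that removes ISG15 and dampens signalling at the interferon receptor, read 11.78 and 12.10 in rat 1, 10.86 and 11.84 in rat 2, 11.33 and 11.65 in rat 3, and 10.45 and 11.66 in rat 4. The AdGFP well of rat 1 lay above 2 of the 4 AdHIF1a wells, and the difference was 0.71 ± 0.18 (adjusted p 0.0638, limma). A second probe set of Usp18 differed by 0.68. Dtx3l and Parp9, partners in 1 complex that lie next to each other on chromosome 11, differed by 0.33 ± 0.11 and 0.23 ± 0.13 (adjusted p 0.131 and 0.339, limma).

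Of the RNA sensors, Ifih1 and Dhx58 were measured, and neither was called. Both were higher in every rat, as were 17.9% of all genes. Ifih1, the gene of MDA5, which recognises long double-stranded RNA, read 10.02 and 10.18 in rat 1, 9.24 and 9.95 in rat 2, 9.43 and 9.72 in rat 3, and 9.21 and 9.93 in rat 4. The AdGFP well of rat 1 lay above 3 of the 4 AdHIF1a wells, and the other 3 AdGFP wells lay below all of them (0.47 ± 0.13, adjusted p 0.0759, limma). Dhx58, the gene of LGP2, a relative of MDA5 that modulates it, read 9.01 and 9.23 in rat 1, 7.83 and 8.46 in rat 2, 8.14 and 8.15 in rat 3, and 7.67 and 8.17 in rat 4. Its groups overlapped, and the difference was 0.34 ± 0.13 (adjusted p 0.159, limma).

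None of the 5 transcription factors was called, and none reached an unadjusted p under 0.05. Irf7, the interferon-induced factor that amplifies type I interferon, read 12.00 and 11.80 in rat 1, 10.55 and 11.32 in rat 2, 11.20 and 11.05 in rat 3, and 10.15 and 10.94 in rat 4. It was lower with AdHIF1a in rats 1 and 3 and higher in rats 2 and 4 (0.30 ± 0.22, adjusted p 0.443, limma). Irf9 and Stat2, subunits of the factor that binds the response element, differed by 0.30 ± 0.14 and 0.20 ± 0.12 (adjusted p 0.233 and 0.343, limma). Irf3, which is activated without new synthesis, differed by -0.13 ± 0.12, and Irf1, which interferon gamma induces, by -0.28 ± 0.11 (adjusted p 0.564 and 0.189, limma).

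Interferon beta itself was dim. Ifnb1 read between 3.92 and 4.05 with AdGFP and between 3.68 and 4.14 with AdHIF1a, below the median of all values on the arrays in every well (-0.055 ± 0.10, adjusted p 0.786, limma). At such signals the array gives only a bound on the level. Ifnar1, a subunit of its receptor, ranged from 9.13 to 9.57 with AdGFP and from 9.35 to 9.84 with AdHIF1a, a difference of 0.195 ± 0.10 (adjusted p 0.282, limma).

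The 3 antigen-processing genes lie together on chromosome 20 and were not called. Psmb8, an immunoproteasome subunit, was higher in every rat, by 0.33 ± 0.11 (adjusted p 0.131, limma). Tap1, which carries peptides to class I molecules, differed by 0.17 ± 0.13 and Psmb9, another immunoproteasome subunit, by -0.20 ± 0.13 (adjusted p 0.491 and 0.415, limma). Set side by side, the median difference was 1.815 over the 3 chemokines, 0.665 over the 5 ISG15 and ADP-ribosylation genes, 0.405 over the effectors and over the sensors, 0.20 over the transcription factors, 0.17 over the antigen-processing genes and 0.07 over Ifnb1 and Ifnar1, against -0.005 over all genes. Differences between these roles were not tested.

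**Figure D3:**
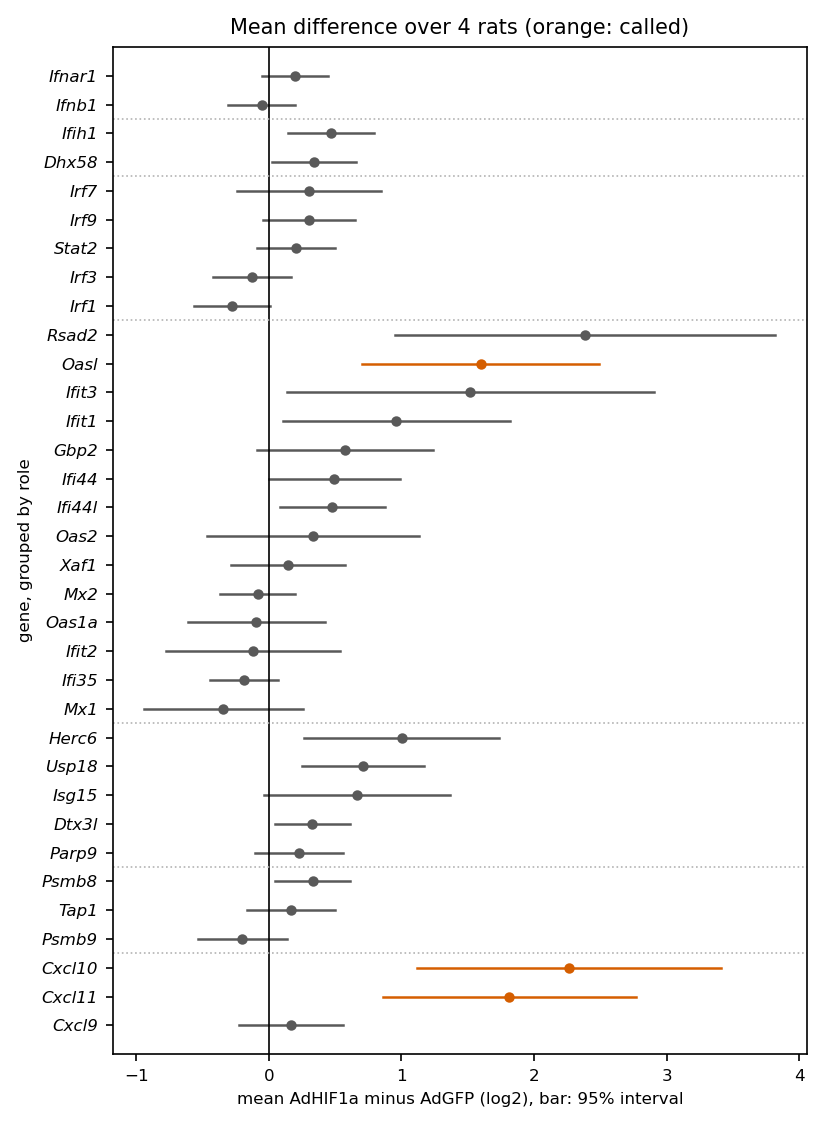
Mean difference over the 4 rats, AdHIF1a minus AdGFP in log2 units, with its 95% interval (bars), for the 34 interferon response genes grouped by role. Orange marks the 3 genes called at an adjusted p under 0.05, Cxcl10, Cxcl11 and Oasl; the interval of Rsad2 reaches farthest to the right.

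The AdGFP wells differed from each other in the interferon response genes by more than they did in most genes. The SD over the 4 AdGFP wells had a median of 0.587 over the 34 members, against 0.136 over all genes. It was at least 0.5 in 21 of the 34, against 1.97% of all genes, and reached 1.74 in Ifit3. With AdHIF1a the median SD was 0.295 over the members, against 0.153 over all genes. The SD was larger over the AdGFP wells than over the AdHIF1a wells in 30 of 34 members, against 43.8% of all genes, and at least 2 times as large in 14, against 12.9%. Ifnar1, Ifnb1, Irf3 and Ifi35 were the 4 exceptions.

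The order of the AdGFP wells was largely shared. Rat 1 had the highest AdGFP well in 31 of 34 members, against 24.7% of all genes. The exceptions were Ifnb1, Cxcl9 and Irf1, for which rats 1 and 3 tied at 11.17. The full order rat 1, rat 3, rat 2, rat 4 from high to low held in 24 of 34, against 4.79% of all genes. The median signal over the members was 10.42 in the AdGFP well of rat 1, 9.13 in rat 2, 9.81 in rat 3 and 9.06 in rat 4, and in the AdHIF1a wells 10.35, 10.005, 9.815 and 9.91. Since the difference within a rat is taken from its AdGFP well, a low AdGFP well and a large difference are not separate observations. A test of differences between rats from the same limma fit was added after the values were seen. It takes the 2 wells of a rat together, so it does not test the spread or the order of the AdGFP wells alone. By this test none of the 34 members and none of all genes passed an adjusted p under 0.05 (limma). An unadjusted p under 0.05 was reached by 16 of 34 members and 5.71% of all genes (limma).

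**Figure D4:**
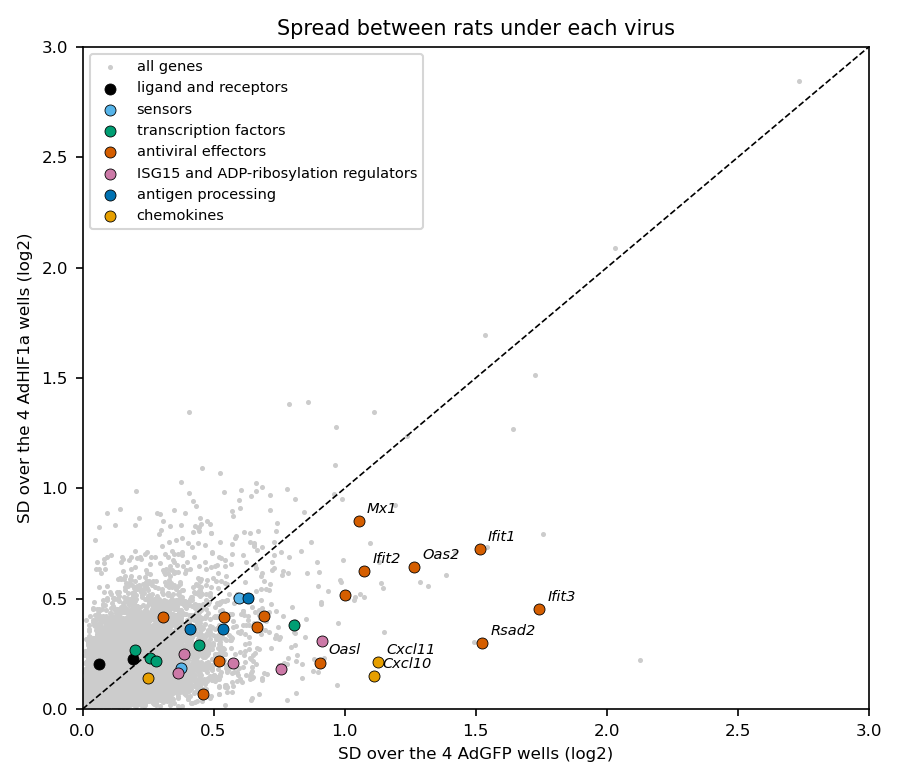
SD over the 4 AdHIF1a wells (vertical axis) against the SD over the 4 AdGFP wells (horizontal axis), both in log2 units, for all genes (grey) and the 34 interferon response genes (coloured by role), with the line of equal SD. Of the 34 genes, 30 lie on the side of larger spread with AdGFP, farthest out Ifit3 with an SD of 1.74.

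A longer list of other interferon pathway genes gave 78 measured entries of 93, of which 5 were called higher and 1 lower (limma), against 5.68% and 7.77% of all genes, so that the higher calls were about as frequent as over all genes. The median difference was 0.12. Rat 1 had the highest AdGFP well in 60 of the 78, against 24.7% of all genes. The order rat 1, rat 3, rat 2, rat 4 held in 33, against 4.79%. The SD was larger over the AdGFP wells than over the AdHIF1a wells in 58, against 43.8%. Its median over the AdGFP wells was 0.342, against 0.136 over all genes. The AdHIF1a well was the higher in 30 in rat 1, 68 in rat 2, 36 in rat 3 and 62 in rat 4. The members thus shared these patterns with this list. Cmpk2, the neighbour and partner of Rsad2 in nucleotide synthesis, read 11.04 and 11.68 in rat 1, 9.61 and 11.35 in rat 2, 10.27 and 10.87 in rat 3, and 9.38 and 10.97 in rat 4, and was higher by 1.14 ± 0.24 (adjusted p 0.0331, limma). Ifi27l2b, an interferon-induced gene, was higher by 1.57 ± 0.34 (adjusted p 0.0393, limma). Both had AdGFP wells that were lowest in rats 4 and 2. Without the rat block the calls for Cmpk2 and Ifi27l2b were lost, with adjusted p of 0.0609 and 0.0700 (limma), and that for Ifi27l2b was also lost with rat as a random block (adjusted p 0.0537, limma).

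The signalling kinases Jak2 and Tbk1 also rose. Jak2 read 9.81 and 10.35 in rat 1, 9.42 and 10.12 in rat 2, 9.74 and 10.12 in rat 3, and 9.56 and 9.98 in rat 4, with no overlap between the groups and a difference of 0.51 ± 0.094 (adjusted p 0.0243, limma). Tbk1, which phosphorylates IRF3, was higher by 0.45 ± 0.092 (adjusted p 0.0317, limma), and Traf3, an adaptor upstream of it and named after its value was seen, by 0.36 ± 0.080 (adjusted p 0.0408, limma). The calls for Jak2 and Tbk1 were lost without any 1 rat, with adjusted p of up to 0.122 and 0.144, and when arrays were centred on their medians, with adjusted p of 0.0782 and 0.105 (limma). Without rat 2, rat 3 or rat 4 none of the 78 was called higher, where 1.73%, 2.85% and 1.78% of all genes were.

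Oas1k, a paralogue of Oas1a, fell. It read 7.07 and 6.28 in rat 1, 6.88 and 5.98 in rat 2, 6.99 and 5.70 in rat 3, and 6.90 and 6.04 in rat 4, so that every AdHIF1a well lay below every AdGFP well. The difference was -0.96 ± 0.11 (adjusted p 0.00766, limma), and the call held without any 1 rat, with an adjusted p of at most 0.0487. Its AdGFP wells lay within 0.19 of each other, unlike those of most members. Jak1 differed by -0.018 ± 0.079, Tyk2 by 0.088 ± 0.086, Ifngr1, a receptor subunit for interferon gamma, by -0.12 ± 0.081, and Socs1, an inhibitor of JAK kinases, by 0.36 ± 0.19, with adjusted p of 0.918, 0.585, 0.405 and 0.288 (limma).

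**Figure D5:**
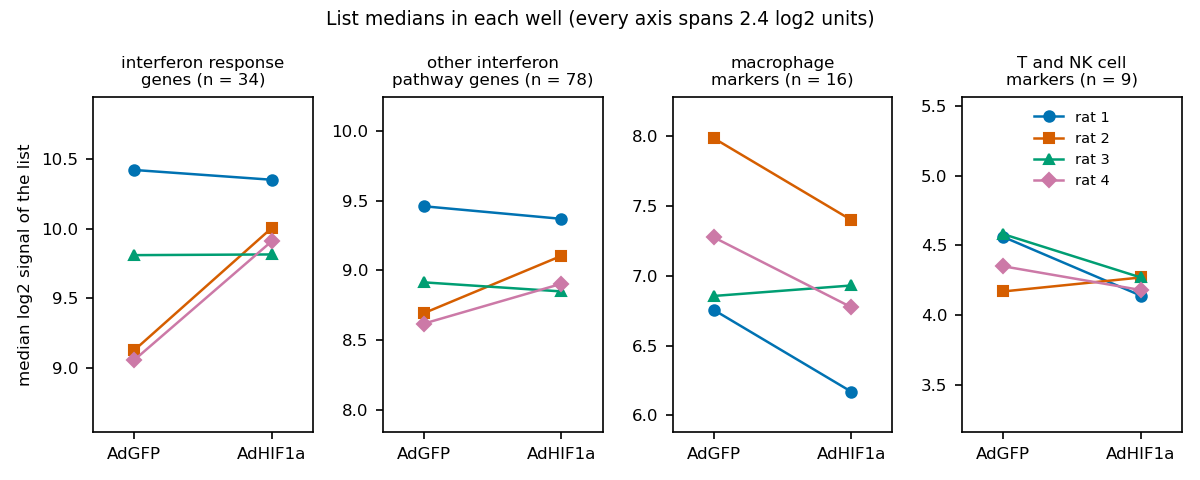
Median log2 signal in each well, in 1 panel per gene list, for the interferon response genes, the other interferon pathway genes, the macrophage markers and the T and natural killer cell markers, with a line joining the 2 wells of a rat. The medians of the interferon response genes with AdGFP run from 9.06 in rat 4 to 10.42 in rat 1, while those of the macrophage markers with AdGFP run from 6.755 in rat 1 to 7.985 in rat 2.

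Markers of ATII cells were bright in every well, and all 8 measured of 9 lay above the array median, among them Sftpc, the surfactant protein gene that marks these cells, with a mean of 12.34 with AdGFP and 12.62 with AdHIF1a. Sftpa1 and Sftpb were called higher and Napsa, Lamp3 and Nkx2-1 lower. These were 2 and 3 of the 8, against 5.68% and 7.77% of all genes. Macrophage RNA was also present. All 16 macrophage markers were measured, and their summed linear signal was 8933 to 11330 with AdGFP and 9594 to 13522 with AdHIF1a. None was called higher, and Adgre1 was called lower (-0.54, adjusted p 0.0434, limma), against 5.68% and 7.77% of all genes. At an unadjusted p under 0.05 (limma) 4 of the 16 were lower and 1 was higher, against 15.4% and 12.2% of all genes. Mrc1 differed by -0.82 and Csf1r by -0.46, both lower in every rat (adjusted p 0.0586 and 0.0590, limma). Adgre1 read between 3.48 and 4.94, below the array median in every well, where background limits any difference. In the AdGFP wells the sum of all 16 was 10355 in rat 1, 11330 in rat 2, 9110 in rat 3 and 8933 in rat 4. This sum was thus highest in rat 2, next highest in rat 1 and lowest in rat 4. Lyz2, which ATII cells also express, gave 53.7% to 69.8% of the sum in the AdGFP wells. In the AdHIF1a wells its share was 56.5% to 81.9%. Without Lyz2, an alternative chosen after seeing the data, the sum in the AdGFP wells was 3124 in rat 1, 5250 in rat 2, 3196 in rat 3 and 3414 in rat 4. In the AdHIF1a wells this sum without Lyz2 was 1736, 5878, 3683 and 3870 in rats 1 to 4. It was thus lower than with AdGFP in rat 1 and higher in rats 2, 3 and 4. Among the AdGFP wells it was highest in rat 2 and lowest in rat 1. Rat 1 had the highest AdGFP well in 1 of the 16 markers. Their median log2 signal in the AdGFP wells was 6.755 in rat 1, 7.985 in rat 2, 6.855 in rat 3 and 7.275 in rat 4, with rat 1 the lowest. The 9 T and natural killer cell markers had summed signals of 202 to 347 with AdGFP and 208 to 257 with AdHIF1a, with 8 of the 9 below the array median and none called. In the AdGFP wells that sum was 269 in rat 1, 202 in rat 2, 347 in rat 3 and 244 in rat 4. The higher values were thus in rats 1 and 3, as for the interferon response genes. Endothelial markers, of which 3 of 4 lay below the array median, had AdGFP sums of 95, 84, 96 and 91 in rats 1 to 4. Their higher sums were also in rats 1 and 3. That held for the median of the whole array as well, at 5.13, 5.00, 5.07 and 5.04. It did not hold for the sums of the ATII (21643, 18157, 15868 and 18463), B cell (146, 149, 123 and 139) and fibroblast markers (178, 185, 189 and 192). In these mixed wells fewer cells of a type and less RNA per cell cannot be told apart, and the part of macrophages and lymphocytes in the interferon signal was not tested.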

How the data were processed

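RNA of 8 wells was hybridised to 1-colour Affymetrix arrays. The authors deposited a table of log2 signals for 36685 probe sets, made with Affymetrix Expression Console per the submitters' processing notes. The sources used here give no summarisation method, version or detection calls, and the values were used as deposited, with array medians of 5.00 to 5.20. Genes were named through the platform annotation, in which 18511 probe sets had 1 symbol, 575 several and 17599 none. The fit used limma 3.58.1 in R 4.3.3 over all probe sets, with rat as a fixed block, a 2-sided moderated test and Benjamini-Hochberg adjustment over 18166 genes. An adjusted p under 0.05 was a call. The design pairs the wells by rat, and deviations from the group means correlated at 0.177 to 0.265 within a rat and at -0.22 to 0.0766 between rats. The script was tested on simulated data.

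The members and lists were chosen with earlier results of these data known. Every member was named, and of the other pathway genes 5 fixed names, of which 1 is not reported here, plus up to 4 called higher and up to 4 called lower by smallest adjusted p, of which 1 was lower. Alternatives covered the block, scaling, dim probe sets, array weights, the variance prior, probe set choice, the threshold and each rat left out. Array number limits the precision. Promoter sequences are from RefSeq (GRCr8).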

Additional observations from a re-analysis of the deposited data

Results flagged for a closer look

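Of 129 groups of 4 values looked at, the AdGFP wells, the AdHIF1a wells and the differences within rats of 43 members and named pathway genes, 3 held a value set apart from the other 3 by more than Dixon's criterion allows, where chance alone gives about 1 in 20 groups. Irf9 read 10.14 in the AdHIF1a well of rat 3 and 10.57 to 10.64 in the others. Stat2 read 11.27 in the AdHIF1a well of rat 1 and 10.66 to 10.76 in the others. Ifi27l2b read 11.13 in the AdHIF1a well of rat 1 and 10.40 to 10.46 in the others.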

How the results depend on the processing

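The number of members called higher was 3 in the paired fit and with the mean of all probe sets, where 5.68% and 5.66% of all genes were higher. It was 4 without the replicate block, with rat as a random block, after quantile normalization, after centring and with a filter at the lower quartile. Rsad2 was the gene added in each of these, where 7.04%, 7.54%, 5.15%, 3.5% and 7.46% of the genes tested were higher. The number was 6 with a filter at the median, which left 32 members, 7 with array weights and 6 with a trended variance prior. In these fits 11.8%, 7.33% and 7.14% of the genes tested were higher. No member was higher at an adjusted p under 0.01, where 1.92% of all genes were. With 1 rat left out 0 to 3 members were higher, and 1.73% to 4.27% of all genes. A variance prior from named genes, an alternative chosen after seeing the data, gave 7, adding Herc6, Ifih1, Rsad2 and Usp18, with 8.68% of all genes higher. No member was called lower in any of these fits.

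The other pathway list had 5 higher and 1 lower in the paired fit. The counts were 3 higher after centring, 9 higher and 3 lower with the median filter, which left 70 genes, and 10 and 2 with weights. They were 9 and 3 with the trended prior, 10 and 3 with the named-gene prior, and 0 higher at 0.01. Of the genes tested, 3.5%, 11.8%, 7.33%, 7.14%, 8.68% and 1.92% were higher, in that order. With 1 rat left out 0 to 4 of the list were higher, and 1.73% to 4.27% of all genes. The genes called lower were 1859 of 11343 with the median filter, and 1933 and 1760 of 18166 with weights and the trended prior. In the paired fit 2443 of all genes were called, 1032 higher and 1411 lower. Centring left 635 higher, and shifted the median of all genes to -0.087. At 0.01 there were 656 calls, 349 higher and 307 lower. Leaving out a rat gave 561 to 2006 calls, 315 to 775 higher and 246 to 1231 lower. The named-gene prior gave 3674, of which 1576 were higher. The cause of these changes was not tested.

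Signs turned only in differences that were not called. These were Jak1 after quantile normalization (0.024), Oas1a and Ifit2 with array weights (0.060 and 0.070), and, with 1 rat left out, Oas1a (-0.27 to 0.14), Ifit2 (-0.40 to 0.073), Ifnb1 (-0.10 to 0.03) and Xaf1 (-0.01 to 0.27). Ifnb1 and Cxcl9 lay below the array median, where signal over background limits any difference.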
